A study of Homo sapiens with 16 samples.

Results

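The transcriptome of K562 cells after 6 h in 25 nM phorbol 12-myristate 13-acetate (PMA) was compared with that of the same line at 0 h, before treatment. The comparison rests on 4 of the 16 RNA-sequencing libraries of a time course with 8 time points, chosen by their time label, with 2 replicates at 0 h and 2 at 6 h. All 4 were labelled as K562 cells of WT genotype, and the 0 h libraries carry the same treatment label with a time of 0. The 0 h libraries held 29562385 and 29241520 estimated reads and the 6 h libraries 27285773 and 34125287. K562 is a single established leukaemia line, and the labels do not say whether replicates came from separate cultures. The p-values therefore measure only the spread between replicate libraries, estimated over all 16, which may be technical. No vehicle-treated library at 6 h was among the samples, so the effect of PMA and that of 6 h in culture cannot be told apart. Because the RNA is from whole cultures, fewer cells of a type and less RNA per cell cannot be told apart either.

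PMA is a plant-derived ester that takes the place of diacylglycerol, the lipid messenger that recruits the phorbol-responsive protein kinase C (PKC) isoforms and the RasGRP exchange factors to membranes. Active PKC and RasGRP drive the RAF, MEK and ERK kinases, whose first transcriptional targets are the FOS, JUN and EGR genes, and PKC also frees NF-kB from its inhibitors. K562 cells carry the BCR-ABL1 fusion kinase and express embryonic and fetal globin genes, and PMA is known to stop their growth, to make them spread and adhere, and to move them from erythroid towards megakaryocyte-like features.

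The groups differed across much of the transcriptome. Of 17559 genes tested, 10040 (57.2%) were called different at 6 h (edgeR quasi-likelihood F-test, Benjamini-Hochberg adjusted p under 0.05), 4880 of them higher (27.8% of tested genes) and 5160 lower (29.4%). Calls of at least 2-fold numbered 5293 (30.1%), with 2562 higher and 2731 lower. The larger fitted steps leaned upward, with 685 genes called at least 8-fold higher and 263 at least 8-fold lower, and 151 against 18 at 100-fold. Fitted folds are no bound for genes at 0 reads in a group. Of the called genes, 149 had 0 reads in both 0 h libraries and 35 in both 6 h libraries. How much of the lean rests on such genes was not tested. Of the calls, 48.6% were higher under TMM scaling, which centres the genes at a median log2 change of 0.0011. Scaling to total counts put that median at -0.35 and the higher share at 30.3% of calls. Changes below are on the TMM scale, relative to that median, and levels are CPM, read counts normalised to the TMM-scaled library size. Summed levels of lists are in TPM without TMM scaling, so they are not on the scale of the changes. Log2 fold changes are given ± SE. Counts of called list members are to be read beside the 27.8% of all tested genes called higher and the 29.4% called lower.

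Replicates lay closer to each other than the time points did, with a root mean square log2 distance of 0.545 between the 0 h libraries and 0.482 between the 6 h libraries, against 1.37 between the group means. The 0 h libraries differed from each other along GC content (Pearson r = 0.738 across 9975 genes between the replicate difference and GC percent, a description across genes), while the 6 h libraries did so little (r = 0.076). The fold change itself had r = -0.168 with GC. The part of GC content in single results was not tested, apart from an alternative that removes its trend in each library. Mitochondrial transcripts made up 2.88 and 2.30% of matched reads at 0 h and 2.53 and 4.45% at 6 h.

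**Figure D1:**
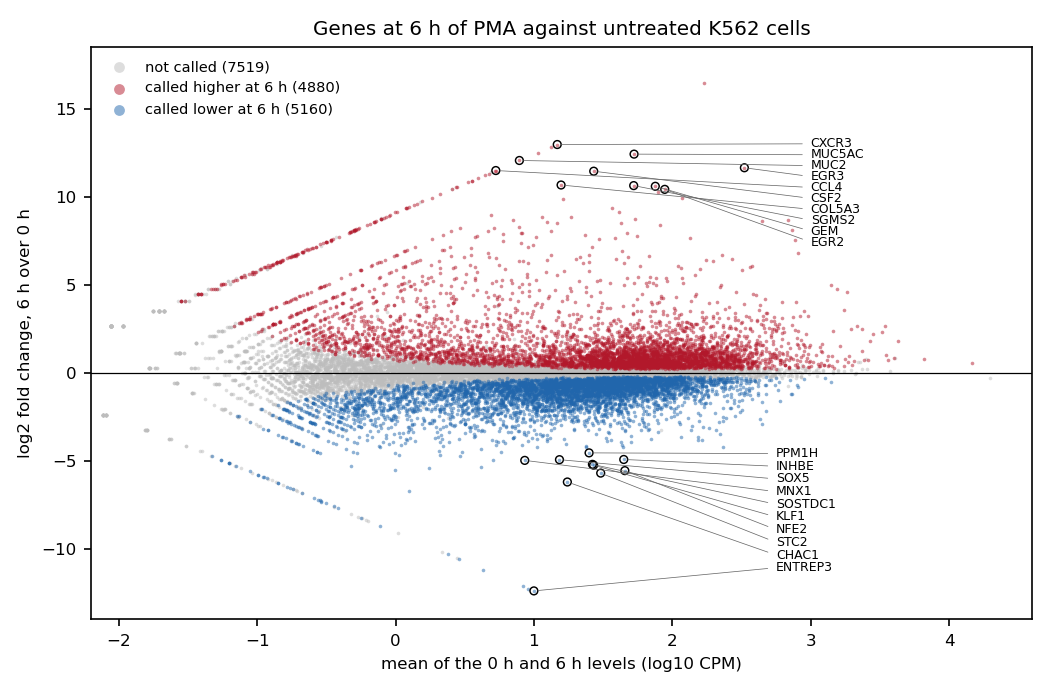
Each point is a gene with a read in the 4 libraries, and the straight lines of points at the edges are genes at 0 reads in 1 of the groups, whose fitted fold is no bound. The x axis is the log10 mean of its 0 h and 6 h levels in CPM and the y axis its log2 fold change at 6 h over 0 h, coloured by edgeR call, with the 10 largest rises and 10 largest falls that met the naming rule circled. The fitted rises reach higher than the fitted falls, with 458 genes called at least 16-fold higher and 85 at least 16-fold lower, genes at 0 reads in a group included.

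The largest rises belonged to genes that were silent or nearly so before treatment. CXCR3, the receptor for interferon-induced chemokines (chrX:71615916-71618517), had 0 reads in both 0 h libraries and stood at 27.7 and 31.3 CPM in the 6 h libraries, which is at least 313-fold higher (edgeR adjusted p = 4.74e-09), where the floor is 3 reads per library. MUC5AC, a gel-forming mucin (chr11:1157953-1201138), went from 1 read in all at 0 h to 92.6 and 119 CPM, a ratio of 6819 with a 95% counting interval of 1223 to 269384. MUC2, the intestinal mucin that lies beside it (chr11:1074875-1110511), had 0 reads at 0 h and reached 13.1 and 18.3 CPM, a rise of at least 166-fold. The naming rule took only genes with no overlap between the 0 h and 6 h libraries, so the separation of the groups here is no result. CSF2, which encodes the cytokine GM-CSF, had 1 read in all at 0 h and 55.3 and 52.9 CPM at 6 h, a ratio of 3437 (interval 616 to 135786). COL5A3, a fibrillar collagen chain, rose from 1 read in all to 33.2 and 29.6 CPM, a ratio of 1989 (interval 357 to 78621). SGMS2, a sphingomyelin synthase, stood at 0.0921 and 0.0322 CPM at 0 h against 111 and 99.5 CPM at 6 h (log2 10.63 ± 0.30, or 11.52 without 0 h replicate 1). GEM, a small GTPase that is induced by mitogens, rose from 0.0921 and 0.0966 to 148 and 153 CPM (log2 10.59 ± 0.23). Intervals and floors here cover counting error only.

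The largest falls joined regulators of the erythroid lineage with genes of amino acid stress and secreted factors. NFE2, the large subunit of the factor that drives globin and platelet genes (chr12:54292111-54301121), stood at 78.9 and 99.1 CPM at 0 h and at 1.71 and 2.02 CPM at 6 h (log2 -5.57 ± 0.18, edgeR adjusted p = 1.84e-11). KLF1, the erythroid Krüppel-like activator of adult globin (chr19:12884422-12887199), stood at 43.8 and 61.4 CPM against 1.37 and 1.38 CPM (log2 -5.26 ± 0.20). CHAC1, which degrades glutathione and is induced by the stress factor ATF4 (chr15:40952962-40956519), fell from 30.6 and 38.3 CPM to 0.256 and 0.637 CPM (log2 -6.21 ± 0.33). Without 6 h replicate 2 the value for CHAC1 was -7.04. As for the rises, the naming rule took only genes whose groups did not overlap. STC2, a secreted glycoprotein, fell by 5.71 on the log2 scale and INHBE, a subunit of activin E, fell by 4.93. SOSTDC1, a secreted antagonist of BMP and WNT ligands, fell by 5.21 and the phosphatase gene PPM1H by 4.56. Among transcription factors outside the erythroid set, the homeobox gene MNX1 fell by 4.98 and SOX5 fell by 4.94. Without 6 h replicate 1 SOX5 fell by 5.60. ENTREP3 met the rule as the largest fall of all, with 511 and 755 reads at 0 h and 0 in both 6 h libraries, but every other library of the series held 207 to 1134 reads of it, so this value is uncertain.

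Immediate-early transcription factors, the first targets of ERK signalling, were still high at 6 h. All 23 list members were tested, and 22 were called higher and 1 lower, where 27.8% and 29.4% of all genes were. Their median log2 change was 3.18, beside 0.0011 over all genes, and single members ran from -0.43 to 11.64. EGR1, a zinc finger factor induced within minutes of mitogen (chr5:138465490-138469315), stood at 118 and 175 CPM at 0 h and at 3266 and 3766 CPM at 6 h (log2 4.59 ± 0.22, edgeR adjusted p = 5.88e-10). EGR3 went from 0.184 and 0.225 CPM to 623 and 705 CPM (log2 11.64 ± 0.22) and EGR2 from 0.0921 and 0.161 CPM to 167 and 186 CPM (log2 10.41 ± 0.19). EGR4, with 0 reads at 0 h, reached 8.32 and 7.54 CPM, a rise of at least 84.1-fold. All 4 EGR paralogs thus stood in both 6 h libraries above both 0 h libraries, though EGR2, EGR3 and EGR4 were picked for large rises. Among the AP-1 subunits, picked after their values were seen, FOS rose by 5.54, FOSB by 5.87, JUN by 2.9 and JUNB by 3.18 on the log2 scale. SRF, the factor that binds the serum response element upstream of EGR1 and FOS, was the member called lower, at 66.2 and 86.4 CPM against 56.1 and 57.6 CPM (log2 -0.43 ± 0.14, adjusted p = 0.0215). Its call was lost without 0 h replicate 2 (-0.22) and without either 6 h replicate. With the GC trend removed it was lost too (-0.15, edgeR adjusted p = 0.0566).

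Genes that restrain ERK rose beside these targets. DUSP proteins remove phosphate from ERK, p38 and JNK kinases, and Sprouty and SPRED proteins act upstream at RAS and RAF. Of 16 members, all tested, 14 were called higher and 2 lower, with a median of 2.47 (2.00 with the member at 0 reads set to its bound, and 1.70 within replicate 2). DUSP5, a nuclear ERK phosphatase, stood at 3.84 and 4.28 CPM at 0 h and 353 and 335 CPM at 6 h (log2 6.41 ± 0.17, edgeR adjusted p = 3.6e-12). ERRFI1, an inhibitor of EGF receptors, went from 1.53 and 1.19 CPM to 135 CPM in both 6 h libraries (log2 6.62 ± 0.16). SPRY4 rose from 51.4 and 63.3 CPM to 817 and 803 CPM (log2 3.82 ± 0.12). In each of these genes the 6 h libraries lay far above the 0 h libraries, but DUSP5 and ERRFI1 were picked for large rises. DUSP2 was called higher at a low level, with 0 reads at 0 h and 8 and 10 reads at 6 h, at least 3.69-fold. DUSP7 was called lower, at 13.1 and 18.8 against 8.07 and 10.1 CPM (log2 -0.81 ± 0.18). LRIG1, which also fell, rested on 5 to 24 reads a library and lost its call without 0 h replicate 2 (-0.52, adjusted p = 0.513) and without either 6 h replicate.

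Genes for PKC isoforms and their relatives moved in both directions. Among 15 genes for PKC isoforms, protein kinase D and RasGRP proteins, all tested, 7 were called higher and 6 lower, where 27.8% and 29.4% of all genes were. Their median of -0.37 turned to 0.38 over members with at least 10 reads in each of the 4 libraries. PRKCB, a conventional PKC that binds phorbol esters, stood at 564 and 577 CPM at 0 h and 256.0 and 261 CPM at 6 h (log2 -1.14 ± 0.10, edgeR adjusted p = 1.83e-07). PRKCQ, PKC theta, best known from T cells, fell from 35 and 37.3 CPM to 5.80 and 4.99 CPM (log2 -2.75 ± 0.12). RASGRP2, the exchange factor of platelets, fell from 8.19 and 9.95 CPM to 1.88 and 1.73 CPM (log2 -2.33 ± 0.23). Against these, PRKCD, PKC delta, rose from 8.41 and 18.1 CPM to 65.0 and 73.1 CPM (log2 2.38 ± 0.25), or by 3.04 without 0 h replicate 2. PRKCI rose from 86.7 and 61.9 CPM to 308 and 304 CPM (log2 2.04 ± 0.14). PRKCI and PRKCZ, which was also called higher (log2 1.35), encode atypical isoforms that lack phorbol binding, so the list and its median are not those of PMA receptors alone. For PRKCD the transcript with most reads differed between the groups, with a share of 24.7 and 48.1% at 0 h and 60.6 and 57.0% at 6 h for the leading one.

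Regulators of mRNA decay were mostly higher. The list held 11 members, 10 of them called higher and none lower, with a median of 1.20. BTG2, an antiproliferative factor that recruits the deadenylase complex, stood at 10.2 and 11.9 CPM at 0 h and 688 and 749 CPM at 6 h (log2 6.02 ± 0.12, edgeR adjusted p = 3.1e-13). ZFP36L1, which binds AU-rich elements of short-lived mRNAs, rose from 47.2 and 52.2 CPM to 807 and 974 CPM (log2 4.16 ± 0.16). ZFP36, also known as tristetraprolin, rose from 10.7 and 17.4 CPM to 85.1 and 98.9 CPM (log2 2.71 ± 0.23).

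NF-kB genes were higher as well. Of 17 members tested, 14 were called higher and none lower, with a median of 1.24. RELB, a subunit of the non-canonical branch, stood at 1.17 and 1.35 CPM at 0 h and at 24.4 and 23.4 CPM at 6 h (log2 4.24 ± 0.23, edgeR adjusted p = 2.03e-09). BIRC3, a ubiquitin ligase that acts in TNF receptor signalling, rose from 0.890 and 0.483 CPM to 9.39 and 9.91 CPM (log2 3.80 ± 0.30). RELA, the main activating subunit, rose from 44.1 and 58.6 CPM to 101 and 107 CPM (log2 1.02 ± 0.14). TRAF1, an adaptor of TNF receptors, rose from 2 reads in each 0 h library to 1.88 and 2.41 CPM (log2 5.02 ± 0.42). The inhibitor NFKBIA, picked after its values were seen, rose from 12.8 and 14.3 CPM to 76.5 and 82.4 CPM (log2 2.55 ± 0.12). TNFAIP3, a feedback deubiquitinase that is often used as an NF-kB readout, did not pass, at 55.4 and 55.0 CPM against 49.1 and 47.0 CPM (adjusted p = 0.0951).

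Secreted ligands made the list with the highest median, 4.38 (4.30 with members at 0 reads set to their bound). Of 25 members, 23 were tested, 19 called higher and 1 lower, while TNF and TGFA had 0 reads in the 4 libraries. CXCL8, the neutrophil chemokine interleukin-8 (chr4:73740506-73743716), stood at 6.08 and 4.73 CPM at 0 h and at 1465 and 1458 CPM at 6 h (log2 8.08 ± 0.18, edgeR adjusted p = 6.13e-13). INHBA, the activin A subunit, rose from 0.184 and 0.0644 CPM to 151 and 167 CPM (log2 10.26 ± 0.27, or 11.19 without 0 h replicate 1). CCL4 went from 0 reads to 13.1 and 8.07 CPM, a rise of at least 112-fold, but 27.0% of the 31-base words of its leading transcript occur in another gene, most in its copy CCL4L2, so the split of reads between them is uncertain. CCL3, its neighbour in the chemokine family, went from 0 reads to 1.58 and 1.20 CPM, a rise of at least 14.8-fold. LIF, HBEGF and IL11, picked after their values were seen, rose by 7.81, 5.20 and 5.94 on the log2 scale. VEGFA, the angiogenic factor, was the member called lower, at 372 and 465 CPM against 138 and 144 CPM (log2 -1.57 ± 0.11). IL1B did not pass at 6 h (log2 1.15 ± 0.57, adjusted p = 0.149).

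Genes of pericellular proteolysis and matrix rose less evenly. Of 20 members tested, 13 were called higher and 1 lower, with a median of 2.12 (1.51 within replicate 2). TIMP1, an inhibitor of metalloproteases, stood at 81.1 and 137 CPM at 0 h and 2692 and 3265 CPM at 6 h (log2 4.77 ± 0.24, edgeR adjusted p = 1.05e-09). SERPINB2, the inhibitor PAI-2, went from 2 reads in all to 35.3 and 29.8 CPM, a ratio of 1028 with a counting interval of 284 to 8495. Part of its reads is uncertain, since its leading transcript shares 27.6% of its 31-base words with other genes, most with SERPINB10. MMP10, or stromelysin-2, went from 3 reads in all to 21.8 and 23.9 CPM, a ratio of 487 (interval 166 to 2365). THBS1, an adhesive glycoprotein of platelets picked after its values were seen, rose from 3.53 and 3.54 CPM to 146 and 152 CPM (log2 5.40 ± 0.20). MMP14 was called lower, at 6.60 and 6.98 against 3.97 and 5.10 CPM, but lost its call without 6 h replicate 1 (log2 -0.40, adjusted p = 0.101) and with the GC trend removed.

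Adhesion and actin genes rose together. Of 27 members tested, 21 were called higher and 2 lower, with a median of 1.70. CD44, the hyaluronan receptor (chr11:35138870-35232402), stood at 14.3 and 15.2 CPM at 0 h and 1553 and 1674 CPM at 6 h (log2 6.77 ± 0.13, edgeR adjusted p = 3.1e-13). ITGA2, the collagen-binding integrin chain of platelets, rose from 1.23 and 1.16 CPM to 25.5 and 23.8 CPM (log2 4.36 ± 0.13). ITGA6, a laminin-binding integrin chain, rose from 2 reads in all to 1.92 and 2.02 CPM, a ratio of 62.8 (interval 17.0 to 526). ACTG1, cytoplasmic gamma actin, rose from 858 and 1058 CPM to 5894 and 6016 CPM (log2 2.64 ± 0.14), with 21.9% of its leading transcript's 31-base words found elsewhere, most in ACTB. ZYX and TPM4, a focal adhesion protein and a tropomyosin picked after their values were seen, rose by 3.21 and 3.09 on the log2 scale. CNN2, a calponin, went the other way, at 141 and 170 CPM against 53.5 and 60.5 CPM (log2 -1.45 ± 0.13). MYL9 also fell by 0.48, a call that edgeR lost in each fit that left out a library except that without 0 h replicate 1. That call was also lost with the GC trend removed (-0.19, edgeR adjusted p = 0.295) and with DESeq2 (adjusted p = 0.0793).

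Several promoters of the risen genes hold motifs of the factors named above, and the windows shown were picked for these matches after values and matches were seen. Sequences are from the RefSeq promoter table of GRCh38.p14, with the Y chromosome left out, which gives 250 bases before and 50 after a start site; the first listed start was used for each symbol, 12154 of 17548 tested symbols matched, and only bases before the start are printed. EGR1 (chr5:138465364-138465423, plus strand) holds a pair of SRF CArG boxes that begin 105 and 83 bases before the start, and ACTG1 (chr17:81512859-81512918, minus strand) holds one that begins 94 bases before it. CXCL8 (chr4:73740404-73740463, plus), SERPINB2 (chr18:63887575-63887634, plus) and MMP10 (chr11:102780664-102780723, minus) hold the AP-1 motif TGANTCA at 137, 102 and 67 bases. CXCL1 (chr4:73869289-73869348, plus) and NFKBIA (chr14:35404797-35404856, minus) hold the NF-kB motif at 79 and 81 bases, and BIRC3 (chr11:102317274-102317363, plus) at 199 and 135. All run 5′ to 3′ on the gene's strand, with matches on either strand in capitals.
EGR1: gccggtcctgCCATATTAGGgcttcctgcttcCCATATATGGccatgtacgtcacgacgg
ACTG1: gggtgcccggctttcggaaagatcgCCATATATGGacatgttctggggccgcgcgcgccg
CXCL8: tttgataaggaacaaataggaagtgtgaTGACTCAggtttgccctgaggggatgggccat
SERPINB2: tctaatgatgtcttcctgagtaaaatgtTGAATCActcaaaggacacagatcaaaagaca
MMP10: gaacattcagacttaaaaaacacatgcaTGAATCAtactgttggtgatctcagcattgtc
CXCL1: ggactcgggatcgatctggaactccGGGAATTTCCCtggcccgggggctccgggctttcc
NFKBIA: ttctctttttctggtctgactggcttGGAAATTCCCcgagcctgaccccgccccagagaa
BIRC3: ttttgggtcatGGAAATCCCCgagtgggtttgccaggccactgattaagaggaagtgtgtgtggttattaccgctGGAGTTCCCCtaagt
Over whole windows of 300 bases, with both strands searched, the AP-1 motif was in 7.73% of the 27195 promoters of the table, in 5.04% of tested genes, in 8.08% of the 1757 matched promoters of genes called at least 2-fold higher and in 3.02% of the 1888 called at least 2-fold lower. The NF-kB motif was in 7 of 15 matched promoters of the NF-kB list, against 10.8% of the table, but in 12.8% of the genes called at least 2-fold higher and 14.2% of those called at least 2-fold lower (12.7% of tested genes). A CArG box was in 5 of 25 adhesion and actin promoters and in 2 of 19 immediate-early ones, against 1.29% of the table, 1.76% of the genes called at least 2-fold higher and 1.11% of those called at least 2-fold lower. These counts hold genes that fell, since CNN2 and SRF carry the motif too. CArG boxes and AP-1 sites are palindromic or nearly so and match on both strands, and in CXCL1 the NF-kB motif matches on both strands with an offset of a single base. A match is a description of these letters, not of binding.

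The megakaryocyte list gave a mixed picture at 6 h. Of 22 members, 15 were tested, 7 called higher and 3 lower, where 27.8% and 29.4% of all genes were. The median of the tested members was 0.55. Among defining platelet genes, GP1BA, GP9, PF4, SELP, TREML1 and CLEC1B had 0 reads in the 4 libraries. ITGB3, the beta chain of the platelet fibrinogen receptor, stood at 1.75 and 1.29 CPM at 0 h and 55.0 and 57.2 CPM at 6 h (log2 5.20 ± 0.15, edgeR adjusted p = 5.94e-12), though 56.4% of its leading transcript's 31-base words also occur in an overlapping readthrough gene. CD9, a tetraspanin of platelets, rose from 0.338 and 0.354 CPM to 13.3 and 13.5 CPM (log2 5.26 ± 0.19). VWF, the platelet and endothelial adhesive protein, went from 0 reads to 1.11 and 0.920 CPM, a rise of at least 10.8-fold. SRGN, the granule proteoglycan, rose from 98.7 and 99.0 CPM to 304 and 270 CPM (log2 1.54 ± 0.18). ITGA2B, the alpha chain that pairs with ITGB3, was among the 3 called lower, at 52.6 and 62.9 CPM against 41.7 and 40.3 CPM (log2 -0.49 ± 0.11, adjusted p = 0.00124). PLEK, pleckstrin, fell from 1.35 and 0.966 CPM to 0.171 and 0.177 CPM (log2 -2.71 ± 0.40), and TUBB1, platelet beta tubulin, fell by 0.95, with 33.9% of its words shared, most with ATP5F1E.

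Most erythroid genes fell, among them enzymes of haem synthesis and glycophorins, while some globin genes were called lower and others did not pass. All 30 members were tested, and 20 were called lower and 1 higher, with a median of -0.61 (-0.98 when scaled to total counts). Their summed level, without TMM scaling, went from 6929 and 7575 TPM to 5621 and 4601 TPM. GYPC, glycophorin C, stood at 98.6 and 121 CPM at 0 h and 19.6 and 23.3 CPM at 6 h (log2 -2.35 ± 0.14, edgeR adjusted p = 4.74e-09), and GYPE fell from 37.3 and 33.4 CPM to 3.24 and 4.25 CPM (log2 -3.23 ± 0.16). GYPC and GYPE were picked for large falls among called members, so the separation of the groups in both is no result. The fetal globin gene HBG2 had 736 and 905 CPM at 0 h and 934 and 764 CPM at 6 h, with groups that overlapped (log2 0.05 ± 0.21, adjusted p = 0.862), and 83.7% of its leading transcript's 31-base words occur in other genes. The embryonic globin HBE1 and the alpha globin HBA1 did not pass either (adjusted p of 0.0954 and 0.0561), while HBZ and HBA2 were called lower (log2 -0.75 each, adjusted p of 0.0398 and 0.00193). A call for HBA2 and none for HBA1 is no test of a difference between them. Reads shared between these genes were not measured. TMOD1, an actin-capping protein of the red cell skeleton, was called higher by 0.21 under TMM, a call lost without any 1 of the 4 libraries, with 49.5% of its words shared and a value of -0.16 when scaled to total counts. Of 16 matched erythroid promoters, 8 held the GATA motif AGATAA on either strand, against 10.5% of the table. The motif was in 6.20% of the genes called at least 2-fold lower and in 6.60% of those called at least 2-fold higher (5.92% of tested genes), and the risen EGR2, INHBA and MMP10 hold it as well. Windows of EPOR, the erythropoietin receptor (chr19:11384360-11384419, minus strand), which fell by 1.94 on the log2 scale, and of CPOX, an enzyme of haem synthesis (chr3:98593722-98593826, minus strand), which fell by 1.67, are shown with that motif in capitals as it reads on the gene's strand.
EPOR: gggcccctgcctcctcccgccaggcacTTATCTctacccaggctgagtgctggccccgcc
CPOX: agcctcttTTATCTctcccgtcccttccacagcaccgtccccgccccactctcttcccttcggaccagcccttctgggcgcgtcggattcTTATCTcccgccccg

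Among blood transcription factors, GATA1, NFE2 and KLF1 fell while GATA2, RUNX2 and ERG rose. Of 31 members, 30 were tested, 7 called higher and 18 lower, 16 of these at least 2-fold, with a median of -1.14. GATA1, the master factor of erythroid and megakaryocyte genes (chrX:48786554-48794311), stood at 107 and 155 CPM at 0 h and 9.30 and 9.98 CPM at 6 h (log2 -3.76 ± 0.18, edgeR adjusted p = 7.11e-10). NFE2 and KLF1, with the values above, were the members that fell furthest. MYB and SPI1, a progenitor factor and a myeloid one picked after their values were seen, fell by 3.24 and 2.11. Opposite to these, GATA2, the factor of stem cells and early megakaryocytes, rose from 113 and 154 CPM to 532 and 599 CPM (log2 2.08 ± 0.16). RUNX2 stood at 11 and 10.8 CPM at 0 h and 59.3 and 59.5 CPM at 6 h (log2 2.44 ± 0.10), and its leading transcript differed between the groups. ERG, an ETS factor of megakaryocyte progenitors, went from 2 reads in all to 7.68 CPM in both 6 h libraries, a ratio of 245 (interval 67.2 to 2026). RUNX1, which acts in megakaryocyte maturation, stood at 253 and 263 CPM against 264 and 270 CPM and did not pass (adjusted p = 0.617), nor did MYC (log2 -0.43 ± 0.19, adjusted p = 0.0633). FLI1, another megakaryocyte factor, was at 0.0427 to 0.129 CPM in the 4 libraries and did not pass (adjusted p = 0.572).

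**Figure D2:**
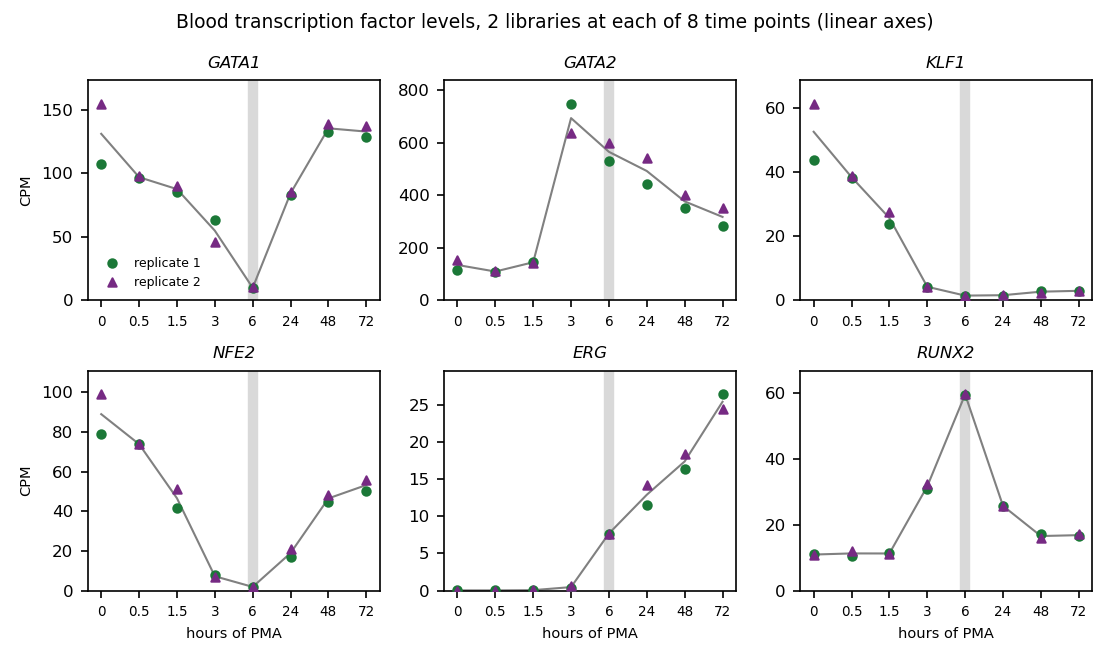
Levels in CPM (linear y axes) of 6 blood transcription factors in the 2 libraries of each time point, with the time points set at equal spacing on the x axis, the grey band at 6 h and the line through the means. GATA1 is lowest at 6 h, KLF1 stays near 0 from 6 h on, GATA2 peaks at 3 h and RUNX2 at 6 h, and ERG is still climbing at 72 h.

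The STAT5 list, with the STAT5 genes themselves, JAK2, targets and cytokine signalling inhibitors, was mostly lower. BCR-ABL1 and cytokine receptors activate STAT5. Of 14 members, 13 were tested, 3 called higher and 8 lower, with a median of -1.84, and OSM had at most 4 reads here. PIM1, a survival kinase, stood at 697 and 888 CPM at 0 h and 103 and 107 CPM at 6 h (log2 -2.92 ± 0.13, edgeR adjusted p = 3.26e-10). STAT5A itself fell from 367 and 444 CPM to 60.6 and 58.9 CPM (log2 -2.76 ± 0.12), and CISH, a feedback inhibitor, from 42.0 and 51.4 CPM to 8.41 and 7.93 CPM (log2 -2.52 ± 0.17). STAT5B was called lower too (-0.86), and JAK2, a kinase upstream of STAT5, was among the genes called higher (1.08). The SOCS inhibitors split, as SOCS2, picked after its values were seen, fell by 2.07. SOCS1 rose from 2.39 and 4.73 CPM to 19.9 and 21.5 CPM (log2 2.54 ± 0.30) and SOCS3 from 10.5 and 12.1 CPM to 59.6 and 56.8 CPM (log2 2.36 ± 0.15).

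In the BCL2 family, which sets the threshold for cell death at the mitochondrion, survival genes moved in opposite directions. Of 16 members, 15 were tested, 5 called higher and 9 lower, where 27.8% and 29.4% of all genes were. Their median was -0.59. MCL1, a short-lived survival protein, stood at 294 and 255 CPM at 0 h and 3304 and 3130 CPM at 6 h (log2 3.55 ± 0.15, edgeR adjusted p = 1.7e-10). BCL2A1, a survival gene and NF-kB target, went from 3 reads in all to 3.54 and 3.61 CPM, a ratio of 76.0 (interval 25.6 to 372). BCL2L1, whose main product BCL-xL protects erythroid cells, fell from 178 and 214 CPM to 28.8 and 27.6 CPM (log2 -2.80 ± 0.12), with a change of leading transcript. BCL2 fell from 5.19 and 4.18 CPM to 0.640 and 0.496 CPM (log2 -3.05 ± 0.35), likewise with another transcript in the lead. The death activator BBC3, or PUMA, fell from 26.2 and 39.2 CPM to 5.25 and 4.85 CPM (log2 -2.70 ± 0.23). BIK was not tested, with at most 9 reads in these libraries.

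Cell cycle lists held calls in both directions, as did the tested genes as a whole. Among the CDK inhibitors and GADD45 genes, 8 of 9 were tested, 5 called higher and 2 lower, with a median of 1.76 (2.08 within replicate 1 and 0.96 within replicate 2), and CDKN2B had 0 reads. CDKN1A, the CDK inhibitor p21 (chr6:36676460-36687339), stood at 12.5 and 14.8 CPM at 0 h and 444 and 426 CPM at 6 h (log2 5.00 ± 0.17, edgeR adjusted p = 2.42e-11). GADD45B rose from 3.84 and 4.96 CPM to 56.3 and 58.1 CPM (log2 3.70 ± 0.15) and GADD45A from 80.9 and 100 CPM to 684 and 771 CPM (log2 3.00 ± 0.14). CDKN2C, or p18, fell from 49.7 and 57.4 CPM to 8.96 and 10.1 CPM (log2 -2.49 ± 0.14), and CDKN1B, or p27, by 0.57. Of 13 genes for G1 cyclins, kinases and E2F, 4 were called higher and 5 lower, where 27.8% and 29.4% of all genes were. Their median was -0.08. Cyclin D1 (CCND1) rose from 13.7 and 15.3 CPM to 45.3 and 48.6 CPM (log2 1.70 ± 0.10), while cyclin D2 (CCND2) fell from 273 and 263 CPM to 52.0 and 49.8 CPM (log2 -2.40 ± 0.09). E2F2 fell by 2.92 and CDK4 by 2.01, though 48.4% of CDK4's words are shared, most with the overlapping gene TSPAN31.

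Of 30 DNA replication genes, all tested, 20 were called lower and 4 higher, with a median of -0.47. MCM2, a subunit of the replicative helicase, stood at 155 and 177 CPM at 0 h and 41.3 and 39.0 CPM at 6 h (log2 -2.05 ± 0.13, edgeR adjusted p = 1.42e-08), and ORC1, of the origin recognition complex, fell from 119 and 135 CPM to 33.5 and 32.3 CPM (log2 -1.95 ± 0.10). GINS3, another helicase subunit, rose from 20.3 and 23.3 CPM to 182 and 190 CPM (log2 3.09 ± 0.10), and RRM2, of ribonucleotide reductase, from 96.1 and 99.8 CPM to 541 and 595 CPM (log2 2.54 ± 0.10), with 37.3% of its words shared. Of 26 mitosis genes, 12 were called lower and 4 higher, where 29.4% and 27.8% of all genes were. Their median was -0.20. CENPA, the centromeric histone, fell from 37.1 and 38.7 CPM to 8.92 and 9.84 CPM (log2 -2.01 ± 0.11). ASPM and CENPE, a spindle pole protein and a kinesin, were called higher, but their 0 h libraries lay far apart, at 297 and 158 CPM for ASPM (655 and 689 at 6 h) and at 141 and 73.6 CPM for CENPE (237 and 252 at 6 h). The part of the GC trend between the 0 h libraries in this was not tested.

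Genes of the ATF4 programme, which cells switch on when amino acids are short or when eIF2 alpha is phosphorylated, fell. Of 26 members tested, 23 were called lower and 1 higher, with a median of -1.74. Their summed level, without TMM scaling, was 6621 and 6815 TPM at 0 h against 2090 and 1926 TPM at 6 h. DDIT4, an inhibitor of mTORC1, stood at 387 and 494 CPM at 0 h and 23.1 and 23.7 CPM at 6 h (log2 -4.23 ± 0.14, edgeR adjusted p = 2.32e-11). PCK2, mitochondrial PEP carboxykinase, fell from 125 and 165 CPM to 14.9 and 13 CPM (log2 -3.38 ± 0.16). WARS1, a tryptophanyl-tRNA synthetase, fell from 749 and 802 CPM to 376 and 411 CPM (log2 -0.98 ± 0.09). ATF4 mRNA itself, picked after its values were seen, fell by 0.82, from 309 and 355 CPM to 181 and 193 CPM. SLC7A11, the cystine transporter, was called higher, from 343 and 230 CPM to 611 and 536 CPM (log2 1.00 ± 0.17), and ASNS, asparagine synthetase, did not pass (log2 -0.33 ± 0.14, adjusted p = 0.0573). The promoter of CHAC1 (chr15:40953236-40953295, plus strand) holds the ATF4 motif TGATGCAA on the opposite strand, 209 bases before the start. That motif was in 0.919% of all promoters, in 0.576% of tested genes and in 2 of 21 matched promoters of the list. Genes called at least 2-fold lower held it in 1.22% and those called at least 2-fold higher in 0.455%. The risen BCL2A1 and the fallen GYPE hold it as well.
CHAC1: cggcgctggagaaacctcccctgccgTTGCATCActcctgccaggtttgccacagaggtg

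Cholesterol synthesis genes rose and fell in nearly equal number. Of 22 tested, 10 were called higher and 8 lower, where 27.8% and 29.4% of all genes were. Their median of 0.19 became -0.17 when scaled to total counts. HMGCS1, which makes HMG-CoA, stood at 172 and 129 CPM at 0 h and 1343 and 1332 CPM at 6 h (log2 3.15 ± 0.14, edgeR adjusted p = 3.68e-10). SQLE, squalene epoxidase, rose from 150 and 134 CPM to 939 and 985 CPM (log2 2.76 ± 0.11). MVK, mevalonate kinase, fell by 1.28, with another leading transcript at 6 h, and FDFT1, squalene synthase, fell from 148 and 171 CPM to 77.9 and 66.8 CPM (log2 -1.14 ± 0.11).

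Nucleolar and ribosomal genes moved little. Of 30 ribosome biogenesis genes, 11 were called higher and 9 lower, where 27.8% and 29.4% of all genes were. Their median was 0.10 (-0.27 when scaled to total counts). NIP7 rose by 1.15 and UTP20 by 0.92, while BOP1 fell by 1.18 (edgeR adjusted p of 1.52e-06, 1.26e-06 and 3.64e-05). Of 77 cytosolic ribosomal protein genes, 76 were tested, 21 called higher and 1 lower, where 27.8% and 29.4% of all genes were. The count called higher was thus close to the share of all genes, and the count called lower far below it. Their median of 0.17 turned to -0.20 when scaled to total counts. Without 6 h replicate 2 the calls were 9 in all. RPS4X had the largest rise, from 667 and 816 CPM to 1498 and 1872 CPM (log2 1.18 ± 0.16), with 28.7% of its words shared with pseudogenes and other genes. Of 13 mitochondrially encoded genes, 8 were called higher, with a median of 0.79 (0.18 within replicate 1 and 1.24 within replicate 2). There were 0 calls without 6 h replicate 2, 0 without 0 h replicate 2, 13 without 6 h replicate 1 and 0 when scaled to total counts. MT-ND5 had 1382 and 1209 CPM at 0 h and 1735 and 3284 CPM at 6 h.

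Zinc finger genes of chromosome 19, a large family with short-lived mRNAs, were lower more often than higher. Of 241 members, 237 were tested, 33 called higher and 86 lower, where 27.8% and 29.4% of all genes were, with a median of -0.27. ZNF792 stood at 31.1 and 33.4 CPM at 0 h and 1.88 and 1.98 CPM at 6 h (log2 -4.06 ± 0.12, edgeR adjusted p = 9.07e-12). ZNF699 rose from 7.70 and 6.60 CPM to 32.6 and 30.9 CPM (log2 2.15 ± 0.14).

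Markers of other cell types were checked as summed lists, in TPM without TMM scaling. Of 18 monocyte, macrophage and granulocyte markers, 12 were tested, 4 called higher and none lower, with a median log2 change of 0.58. Their summed level was 562.3 and 544 TPM at 0 h and 391 and 392 TPM at 6 h. Among defining markers of that set, MARCO, S100A8, ELANE, AZU1 and CTSG had 0 reads in the 4 libraries. CSF1R, another member, was called higher (log2 2.39) with under 20 reads in a group. Its value ran from 1.80 without 0 h replicate 1 to 3.35 without 0 h replicate 2, and its call was lost without 6 h replicate 2 (1.98). MPO, myeloperoxidase, rose from 2 reads in each 0 h library to 25.3 and 23.9 CPM (log2 8.53 ± 0.24, edgeR adjusted p = 1.64e-11), and ITGAX, the integrin chain CD11c, from 3.87 and 3.57 CPM to 16 and 15.9 CPM (log2 2.1 ± 0.13). MS4A3, a marker of granulocyte progenitors and the largest part of the sum at 0 h (372 and 346 TPM), did not pass (276 and 201 CPM against 192 and 190 CPM, adjusted p = 0.101). Of 10 lymphocyte markers, 5 were tested and 2 called lower, with a sum of 28.0 and 40.2 TPM against 18.7 and 21.7 TPM, and MS4A1 had 0 reads. Of 12 stromal, endothelial and epithelial markers, 7 were tested, 1 called higher and 1 lower, with a sum of 90.4 and 74.3 TPM against 108 and 98.9 TPM, and LUM and KRT5 had 0 reads. EPCAM, an epithelial adhesion molecule, was the member called higher, from 49.3 and 40.6 CPM to 82.0 and 83.2 CPM (log2 0.88 ± 0.12). The part of other cell types in the changes above was not tested.

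**Figure D3:**
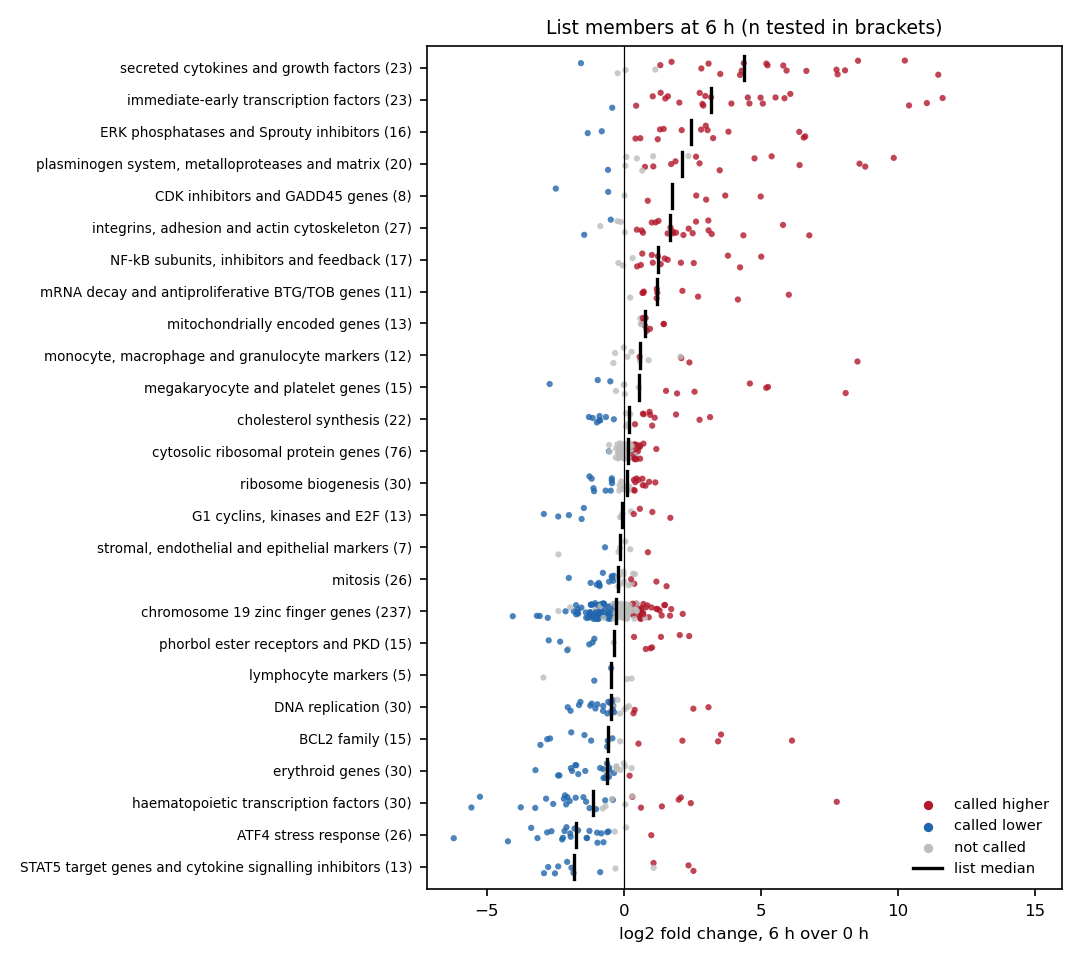
Log2 fold change at 6 h over 0 h (x axis) of the tested members of each list (y axis, with the number tested), coloured by edgeR call, with the list median as a black bar. Lists are ordered by median, from the STAT5 list at -1.84 to secreted cytokines and growth factors at 4.38, and most lists hold calls in both directions.

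The 6 h profile was also set against the libraries taken before and after it, by direct contrasts that share the 6 h libraries with the comparison above. Between 3 h and 6 h, 7231 genes (41.2%) were called. Between 6 h and 24 h, 9943 (56.6%) were called, 5413 higher (30.8%) and 4530 lower (25.8%) at 24 h. Immediate-early factors had a median log2 difference of 0.09 between 3 h and 6 h and of -0.93 between 6 h and 24 h, with 19 of 23 called lower at 24 h. EGR1 did not differ beyond the spread between 3 h and 6 h (log2 0.29, edgeR adjusted p = 0.25) and fell by 1.56 by 24 h. CXCL8 rose by 0.40 from 3 h to 6 h and fell by 5.02 by 24 h, and CDKN1A fell by 2.33 by 24 h. The proteolysis and matrix list had medians of 0.75 from 3 h to 6 h and 1.06 from 6 h to 24 h, and SERPINB2 rose by 5.14 and then by 2.43. THBS1 rose by 4.43 and then by 4.14.

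Several genes that fell by 6 h stood higher again at 24 h. Blood transcription factors had a median difference of -0.33 from 3 h to 6 h and of 1.14 from 6 h to 24 h, with 19 of 30 called higher at 24 h. GATA1 fell by 2.50 from 3 h to 6 h and rose by 3.13 by 24 h (edgeR adjusted p = 1.1e-07 and 1.0e-08), and NFE2 fell by 1.95 and rose by 3.34. BCL2L1 rose by 2.83 and STAT5A by 1.79 by 24 h. KLF1 and CHAC1 did not pass between 6 h and 24 h (0.15 and 0.03, adjusted p of 0.60 and 0.96). Erythroid genes had medians of -0.45 and -0.65 in these contrasts, with 18 of 30 called lower at 24 h against 6 h. The ATF4 list had medians of -1.22 and -0.56.

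**Figure D4:**
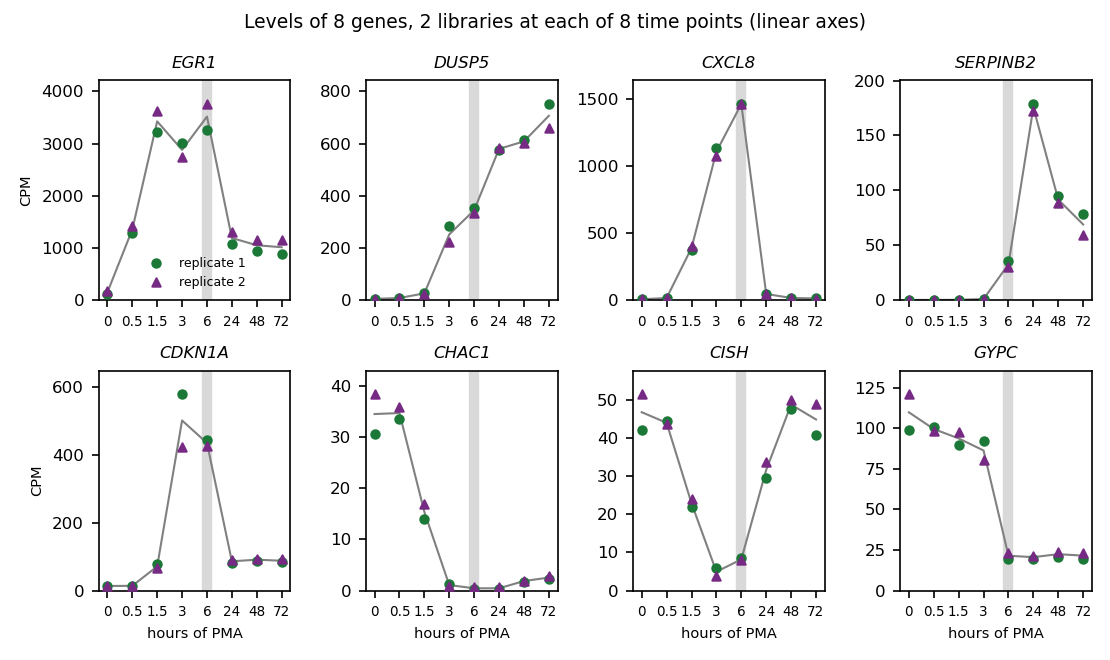
Levels in CPM (linear y axes) of 8 genes in the 2 libraries of each time point, with the time points set at equal spacing on the x axis, the grey band at 6 h and the line through the means. CXCL8 is highest at 6 h, SERPINB2 at 24 h and DUSP5 at 72 h, while CHAC1 is near 0 from 3 h to 24 h, CISH is lowest at 3 h and GYPC stays low from 6 h on.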

How the data were processed

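RNA of K562 cells was sequenced in 16 libraries, 2 at each of 8 times in PMA, and the 4 libraries at 0 h and 6 h carry the main comparison. The authors deposited estimated counts and TPM (transcript abundance corrected for effective length and library size) for each transcript and library, per the file headers, in the column layout of Salmon. The submitters' processing notes name Trim Galore 0.4.3 and Salmon. The Salmon version, the library type, the strand used in counting and the transcript release are not given in the sources used here. Of 177456 transcripts, 167027 matched GENCODE 29 (GRCh38), which gives the gene names and coordinates. The other 10429, with 3.07 to 3.75% of reads in the 4 libraries, were not assigned to genes.

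Estimated counts were summed per gene and rounded. Genes passing edgeR's default filter (17559) were fitted with edgeR 4.0.16 in R 4.3.3 (quasi-likelihood F-test, TMM scaling, all 16 libraries as 8 groups, no block), with Benjamini-Hochberg adjustment over all of them and a threshold of 0.05. Printed CPM are TMM-scaled. For groups at 0 reads, folds are bounds against 3 reads per library, and groups with 1 to 3 reads in all have ratios with exact 95% counting intervals. Alternatives were DESeq2 1.42.0, other scaling, filters, counts and thresholds, a GC correction, a replicate block and leaving out each library. On simulated counts for this comparison (16585 genes), the test recovered 99 of 100 genes changed 4-fold and 82 of 100 changed 2-fold, and called 6 unchanged genes. The simulated counts held no GC trend between libraries and far fewer changed genes than were called here. These rates may therefore not hold for the real libraries.

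The members and lists were chosen with earlier results of these data known. Named genes are the 10 largest rises and 10 largest falls among called protein-coding genes with at least 10 CPM in the higher group, groups that do not overlap, less than 2-fold between the libraries of the higher group and no time point with 0 reads in 1 library and 10 or more in its replicate. From each list, the rule takes the 3 called members furthest in the direction of the median, the 2 furthest against it and the tested member with the highest TPM. Others are said to be picked after their values were seen. Of 141 genes named by the rule, 21 share at least 20% of the 31-base words of their leading transcript with another gene and 27 overlap exons of another tested gene. A transcript other than the 0 h leader led at 6 h in 7 of the 112 that could be compared. Some members that the rule names are not reported here.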

Additional observations from a re-analysis of the deposited data

Results flagged for a closer look

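The 6 h libraries differed from their neighbours in time as well as from 0 h. By edgeR's quasi-likelihood test 7231 genes differed between 3 h and 6 h and 9943 between 6 h and 24 h, in contrasts that share the 6 h libraries.

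Transcripts that matched no entry of the annotation also held signal. Of these 10429 transcripts, 26 had under 1 read in both 0 h libraries and at least 100 in both 6 h libraries, and 18 showed the reverse. The 26 summed to 10559 and 14188 reads in the 6 h libraries. They were not assigned to genes and enter no comparison.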

How the results depend on the processing

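The number of genes called at 6 h against 0 h stayed within 1.5 times of 10040 under each alternative except a test against a 2-fold change, with 9593 by DESeq2, 8360 at an adjusted p under 0.01, 10342 with the replicate block and 8621 to 9725 when a library was left out. An alternative chosen after seeing the data, without genes that had 0 reads in 1 library and 10 or more in its replicate, gave 9999. Same-numbered libraries mostly deviated together, with correlations over 0.1 in 24 of 28 pairs of time points and at 0.128 between 0 h and 6 h, but 4 pairs were negative (range -0.296 to 0.598) and the labels name no shared batch, so the numbers were not taken as pairs. Of the values of named genes under the alternatives, 2134 kept direction and call, 68 lost the call, 10 gained it, 2 reversed and 8 changed sign without being called at 6 h against 0 h. The called genes that reversed were TMOD1 at -0.16 when scaled to total counts and NPM1 at -0.017 with length-scaled TPM counts. The others were HBG2 and RPS18, for example at -0.31 and -0.28 when scaled to total counts. Of the list medians, 597 moved by less than the spread between replicate sets, 227 by more and 8 reversed. A reversal was counted only where the main median was at least 0.1 in size and the move exceeded that spread. Other changes of sign are among the 597 or the 227.

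Tested against a 2-fold change, 3341 genes were called, 1703 higher and 1638 lower, and list counts became 4 for PKC, protein kinase D and RasGRP genes, 4 for mRNA decay, 8 for NF-kB, 9 for erythroid genes, 9 for the BCL2 family, 6 for DNA replication, 2 for mitosis, 1 for ribosome biogenesis, 4 for cholesterol synthesis, 18 for zinc finger genes and 0 for lymphocyte, stromal, ribosomal protein and mitochondrial genes. Scaled to total counts, 3210 genes were called higher and 0 mitochondrial genes, and medians turned to -0.17 for cholesterol synthesis and -0.20 for ribosomal proteins. With at least 10 counts in each of the 4 libraries, the PKC, protein kinase D and RasGRP median turned to 0.38, and 13 secreted factors and 2 myeloid markers were called.

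Lists with few or small calls moved most. Myeloid markers had 2 to 5 calls when a library was left out, with 2 without 6 h replicate 2, and their median from 3 h to 6 h ran from -0.10 without 3 h replicate 1 to 0.27 without 3 h replicate 2, and turned to -0.048 within replicate 2. Lymphocyte markers had 1 call with only the 0 h and 6 h libraries, 1 when 0 h replicate 2 or 6 h replicate 1 was dropped and 1 at an adjusted p under 0.01. Stromal markers had 4 calls with length-scaled counts, 4 with the GC trend removed and the replicate block, 1 without either 0 h replicate 2 or 6 h replicate 2, 1 at an adjusted p under 0.01 and a median of 0 within replicate 2. Ribosomal proteins had 36 calls with the GC trend removed and the replicate block, 11 at an adjusted p under 0.01, and 9 without 6 h replicate 2 to 28 without 0 h replicate 2. Mitochondrial genes had 13 calls with no filter, 4 by DESeq2, 4 with the GC trend removed, 3 with the replicate block added, 0 at an adjusted p under 0.01 and 0 to 13 when a library was left out. Their median from 6 h to 24 h was -0.76 without 24 h replicate 2, but 0.17 when 6 h replicate 2 and 0.04 when 24 h replicate 1 was dropped. The cause of these changes was not tested. Within 1 replicate set there is no test, and genes with few reads, such as LRIG1 and DUSP2, are limited by depth.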
